A study of Oryza sativa with 9 samples.

Results

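ABC transporters of rice were described here in leaf RNA of seedlings with altered or unaltered OsHMGB707, a gene for a high mobility group box protein. Members were chosen by name only. A probe set was taken when the array annotation lists exactly 1 gene for it and a symbol or synonym of that gene is an ABC number of subfamilies A to I or a PDR number (pleiotropic drug resistance, the older rice series). The rule found 15 probe sets of 12 genes, out of 17905 genes listed alone for a probe set in the series. The reference gene table holds 15 genes that meet the rule, and ABCG35, ABCG43 and ABCG53 had no probe set listing them alone. Of the measured genes, 10 belong to subfamily G, 1 to subfamily C (ABCC13) and 1 to subfamily I (ABCI12), so most of the large rice family is not described here.

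Leaves of 21-day-old seedlings of the japonica cultivar Zhonghua11, grown without stress, were measured on 9 Affymetrix arrays. Each of the 3 groups had 3 pools of seedlings. WT was the untransformed cultivar. OE carried the OsHMGB707 cDNA behind the cauliflower mosaic virus promoter, and RNAi carried an interference construct against OsHMGB707 behind the ubiquitin promoter, so both act in most tissues. The labels do not name the transformed lines. For its stress tests the paper describes liquid culture after germination of OE and RNAi seed on hygromycin and of WT seed without it. Its array methods do not say whether the same held for the seedlings measured here. No transformed control was measured and the constructs were in different vectors, so an effect of OsHMGB707 cannot be told apart from effects of transformation, vector, insertion or a condition shared by a group. On the log2 scale OsHMGB707 (LOC4336676) read 12.39, 12.38 and 12.38 on the WT arrays, 12.25, 12.28 and 12.37 on the OE arrays and 10.31, 10.43 and 10.03 on the RNAi arrays. The OsHMGB707 probe set thus read lower on the RNAi arrays (log2 difference -2.13, limma adjusted p = 3.85e-06) and not higher on the OE arrays (-0.09, adjusted p = 0.703). By qPCR the paper found higher OsHMGB707 in several OE lines. Whether this probe set reads the RNA of the OE construct was not tested. OE below means the arrays labelled OE.

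ABC transporters are membrane proteins that use ATP to move lipids, hormones, metabolites, metals and toxins across membranes. In plants, long members of subfamily G, the PDR type, sit mostly in the plasma membrane and export terpenoids, waxes and other compounds, whereas short members, the WBC type, join with a partner to work and are known for cutin, suberin and wax export. Subfamily C holds pumps of the vacuole membrane that take up glutathione conjugates, metal chelates and inositol phosphates, and subfamily I gathers separate subunits like those of bacteria.

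Values were deposited as log2 levels after RMA, a method that corrects the background and brings the arrays to a common distribution. Array medians lay between 5.89 and 5.94. Correlations across probe sets were 0.992 to 0.998 within a group and 0.988 to 0.995 between groups. The gap between 3' and 5' control probe sets was 2.02 to 2.30 for actin, -0.12 to 0.18 for GAPDH and -3.36 to -2.43 for EF1a, with both ends of the EF1a range on single arrays (RNAi replicate 1 and WT replicate 1). Several markers of leaf were bright, and the small subunit of Rubisco, its activase rca and the antenna gene CAB2R each had a probe set above the 99th percentile of mean levels. Other sets of the list were dimmer, with RBCS1 at the 2.6 percentile and another set of the Rubisco small subunit (OsrbcS) at 31.7. The summed level of 19 leaf probe sets was 17.09 to 17.15 in WT, 17.12 to 17.24 in OE and 17.07 to 17.12 in RNAi. Of these sets 1 was called, GS2 (chloroplast glutamine synthetase), higher in OE than in WT by 0.32 and than in RNAi by 0.33. The name GS2 also reached a set of another gene, GRF4, which differed from WT by 0.17 in OE and 0.31 in RNAi, uncalled. PORA had the largest difference of the list, -0.88 in RNAi against WT (adjusted p = 0.0860, not called). Every PORA value in RNAi was below all WT and OE values. In RNAi against WT, 7 of the 19 sets were above 0 and 12 below. The summed level of 3 root probe sets (Lsi1, Lsi2 and OsPht1;6) was 8.05 to 8.19 in WT, 8.26 to 8.39 in OE and 8.03 to 8.48 in RNAi. That sum was higher on every OE array than on every WT array, and it rests mostly on Lsi1, which differed by 0.23 in OE, while Lsi2 and OsPht1;6 differed by -0.029 and -0.16. None of the 3 passed the test in any comparison. The summed level of 8 anther and pollen probe sets was 13.69 to 13.77 in WT, 13.69 to 13.74 in OE and 13.56 to 13.68 in RNAi, with none called. That sum is mostly a single probe set, which the name OsCP1 reached although its gene encodes a cystatin, and which differed by -0.10 in RNAi. The other 7 were all above 0 in RNAi against WT, and the median of the list was 0.15. Their part in the results below was not tested.

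Called transporters were counted beside the share of all probe sets called. At a limma adjusted p under 0.05, adjusted by Benjamini-Hochberg over all 57194 tested probe sets, 1 of 15 transporter probe sets was called between OE and WT, against 2.94% of all probe sets. Between RNAi and WT 1 of 15 was called, against 0.479% of all, and between OE and RNAi 3 of 15 were called, against 6.16% of all. The called genes were ABCG36 (lower than WT in both lines), ABCG5 and ABCG48 (lower in OE than in RNAi) and ABCI12 (higher in OE than in RNAi). The comparisons with WT share the WT arrays. No called transporter differed by over 2-fold, and none of these calls was kept by an unmoderated test per probe set, which gave ABCG36 an adjusted p of 0.134 in OE and called 42, 18 and 84 probe sets in all. P-values measure the spread between pools only, and in leaf extracts fewer cells of a type and less RNA per cell cannot be told apart.

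**Figure D1:**
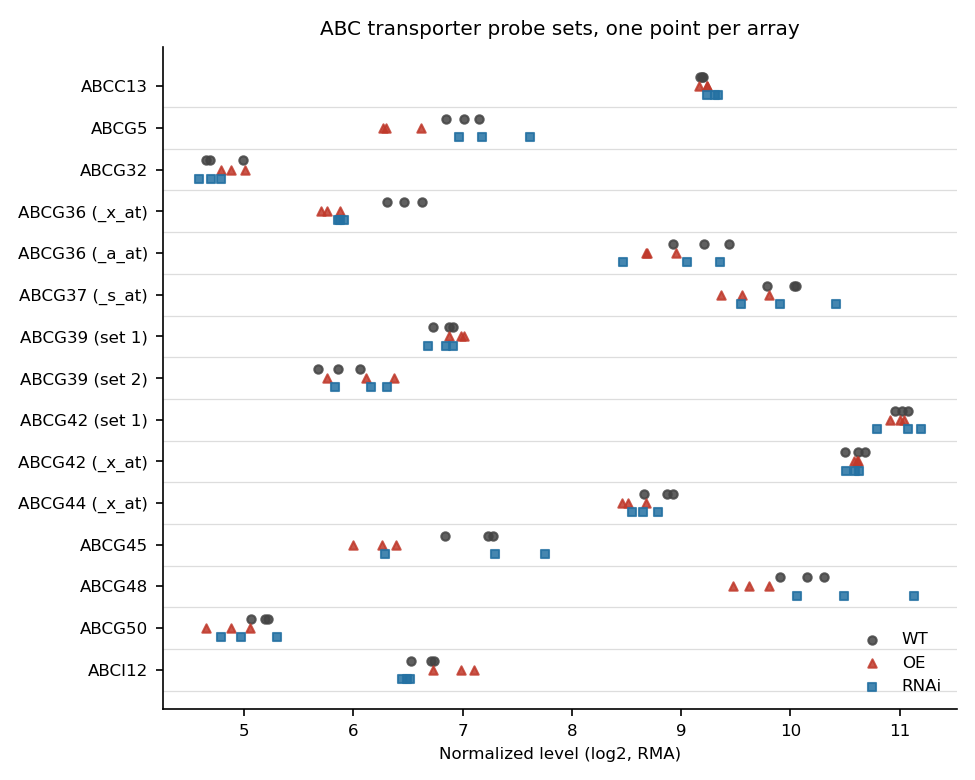
Normalized level (log2, x axis) of each of the 15 ABC transporter probe sets (rows) on the 9 arrays, with a point per array and a shape and colour per group. The OE arrays of ABCG36 (_x_at), ABCG5, ABCG45, ABCG48 and ABCG50 lie below all their WT arrays, and positions compare groups within a row only.

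The member with the clearest difference was ABCG36 (LOC4327728, chromosome 1, also PDR9), a PDR-type gene known in rice for induction by heavy metals in roots and for cadmium export. It has 2 probe sets. The set with suffix _x_at, a suffix Affymetrix gives to sets with probes that can also match other transcripts, read 6.31, 6.46 and 6.63 on the WT arrays. The same set read 5.70, 5.87 and 5.76 on the OE arrays and 5.88, 5.86 and 5.92 on the RNAi arrays. Every array of either line was below every WT array, and the lines overlapped each other. It fell by 0.69 in OE (SE 0.09, 95% interval -0.88 to -0.49, adjusted p = 0.00328), which is 1.61-fold lower, and by 0.58 in RNAi (SE 0.09, interval -0.78 to -0.39, adjusted p = 0.0209), which is 1.497-fold lower. Between the lines it differed by -0.11 (interval -0.30 to 0.09, adjusted p = 0.526).

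The call in OE was kept on leaving out each of the 9 arrays in turn (adjusted p up to 0.0214), and the call in RNAi did not survive leaving out any of WT replicates 2 and 3 and RNAi replicates 2 and 3, with an adjusted p of at most 0.0969. The other ABCG36 set carries the suffix _a_at, which marks sets for several transcripts of the same gene. It read 8.92, 9.21 and 9.44 in WT, 8.69, 8.96 and 8.68 in OE and 8.47, 9.05 and 9.35 in RNAi. Here all the groups overlapped. The difference from WT was -0.42 in OE (interval -0.88 to 0.05, adjusted p = 0.348) and -0.23 in RNAi (interval -0.70 to 0.23, adjusted p = 0.695), and both intervals include the values of the _x_at set. The 2 sets therefore disagree on the call but not on the sign, although in RNAi the _a_at difference reached 0.011 without RNAi replicate 1.

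ABCG36 stands in a group of neighbouring PDR genes. In the reference order ABCG35 is directly beside it with 0 genes between, and ABCG37 (LOC4327730, also PDR8) follows with 1 gene between. ABCG35 had no probe set of its own, and whether the _x_at set reads RNA of a neighbour was not tested, because probe sequences were not used here. ABCG37 was read by a set with suffix _s_at, which also marks probes shared by several transcripts. Its levels were 9.79, 10.03 and 10.06 in WT, 9.55, 9.80 and 9.37 in OE and 9.55, 9.90 and 10.42 in RNAi. The OE arrays overlapped both other groups, and the RNAi arrays reached below and above the WT range. The difference from WT was -0.38 in OE (interval -0.82 to 0.06, adjusted p = 0.368) and -0.0026 in RNAi (interval -0.44 to 0.44, adjusted p = 0.997).

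**Figure D2:**
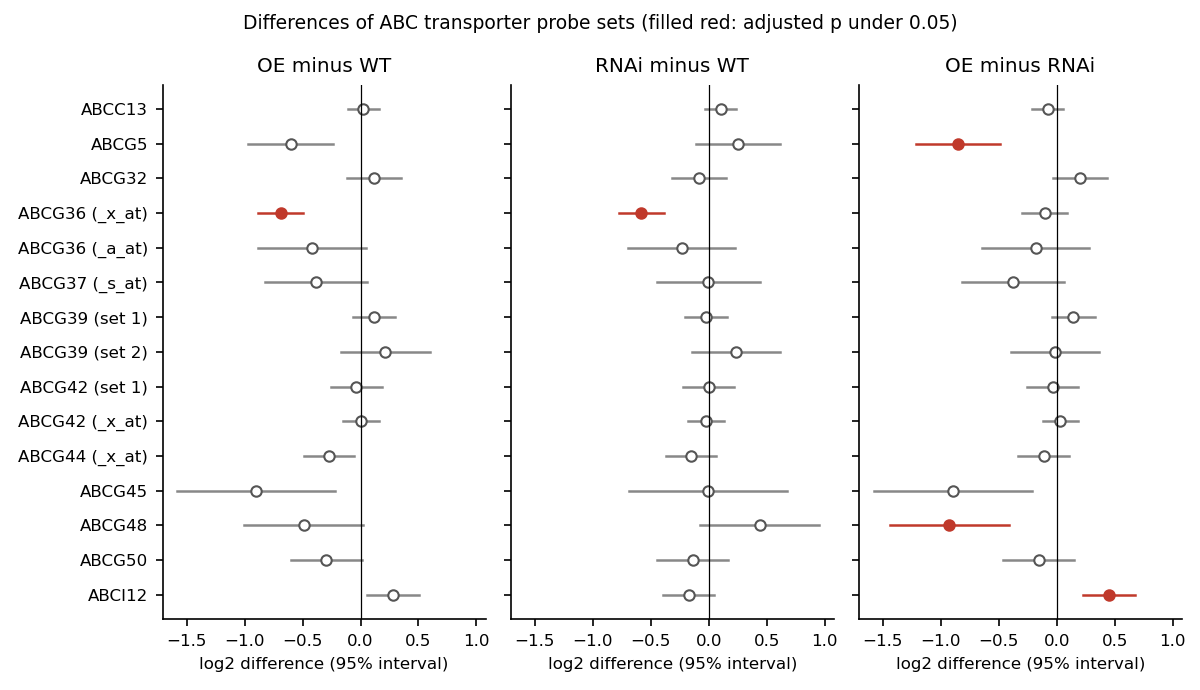
Log2 difference (x axis) with its 95% interval for each transporter probe set (rows) in the 3 comparisons (panels), with called differences filled in red. ABCG36 (_x_at) is called against WT in both lines, at -0.69 and -0.58, and ABCG5, ABCG48 and ABCI12 are called only between OE and RNAi, at -0.86, -0.93 and 0.45.

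ABCG5 (LOC4332449, chromosome 3, also RCN1 and WBC5) is the only WBC-type gene among the members. In rice it is known for its part in tiller and shoot growth and in the suberin of root barriers. Its probe set read 6.85, 7.15 and 7.01 in WT, 6.30, 6.62 and 6.27 in OE and 7.62, 7.18 and 6.96 in RNAi. The OE arrays lay below all the others, and the RNAi arrays overlapped WT at their lower end. It was 0.86 lower in OE than in RNAi on the log2 scale (difference -0.86, SE 0.16, adjusted p = 0.0146), or 1.81-fold, and the call was lost without OE replicate 1 or OE replicate 3 (adjusted p up to 0.0652). Against WT it differed by -0.60 in OE (interval -0.97 to -0.24, adjusted p = 0.0896) and by 0.25 in RNAi (interval -0.11 to 0.62, adjusted p = 0.571). The OE difference from WT passed the threshold without RNAi replicate 1 (adjusted p = 0.0290) and with the spread taken from the OE and WT arrays alone (adjusted p = 0.0424).

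ABCG48 (LOC4350807, chromosome 11), a PDR-type gene known to raise cadmium tolerance when expressed in yeast and Arabidopsis, followed the same order of group means. It read 9.90, 10.31 and 10.16 in WT, 9.81, 9.62 and 9.47 in OE and 10.06, 10.49 and 11.13 in RNAi. All OE arrays were below all WT and all RNAi arrays, and RNAi replicate 3 was the highest. The difference between the lines was -0.93 (SE 0.23, adjusted p = 0.0437), 1.90-fold lower in OE. This call was close to the threshold, and it was lost on leaving out any array but RNAi replicate 1 (adjusted p up to 0.128). Against WT, the ABCG48 difference was -0.49 for OE (adjusted p = 0.318), whereas it was 0.44 for RNAi (adjusted p = 0.470). The name PDR3 is a synonym of both ABCG36 and ABCG48 in the gene table, so the ABC numbers are used throughout.

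ABCG45 (LOC4346210, chromosome 8, also PDR1) had the largest OE difference from WT among the members, yet it was not called. Its levels were 6.84, 7.28 and 7.23 in WT and 6.00, 6.39 and 6.27 in OE, and on the RNAi arrays they were 6.29, 7.30 and 7.75. Every OE array was below every WT array, while RNAi replicate 1 fell among the OE arrays and the other RNAi arrays lay above all WT arrays. The differences were -0.90 for OE against WT (interval -1.58 to -0.22, adjusted p = 0.167), -0.0051 for RNAi against WT (interval -0.68 to 0.67, adjusted p = 0.996) and -0.89 for OE against RNAi (adjusted p = 0.122). Without RNAi replicate 1 both OE differences passed the threshold (-0.90, adjusted p = 0.0201, and -1.31, adjusted p = 0.00464).

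The other PDR-type genes were measured without a call in any comparison. ABCG44 (PDR17) read 8.66, 8.93 and 8.87 in WT, 8.51, 8.68 and 8.46 in OE and 8.66, 8.79 and 8.55 in RNAi, a difference of -0.27 in OE (interval -0.49 to -0.05, adjusted p = 0.192). ABCG50 (PDR23) read 5.07, 5.22 and 5.19 in WT, 4.89, 5.06 and 4.65 in OE and 5.30, 4.97 and 4.79 in RNAi, a difference of -0.29 in OE (interval -0.60 to 0.01, adjusted p = 0.313). ABCG44 overlapped between OE and WT, and ABCG50 did not. Both probe sets of ABCG42 (PDR12) lay close together across the groups, with means of 11.02, 10.98 and 11.02 in WT, OE and RNAi on the first set and 10.60, 10.60 and 10.57 on the _x_at set. Over both sets and all comparisons the ABCG42 intervals stayed between -0.26 and 0.23. The 2 sets of ABCG39 (PDR7) differed from WT by 0.12 and 0.22 in OE and by -0.024 and 0.23 in RNAi (adjusted p from 0.510 to 0.935). ABCG32 (PDR16), whose mean lay below the median probe set, differed by 0.11 in OE and -0.087 in RNAi (adjusted p = 0.634 and 0.782).

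ABCI12 (LOC4341938, chromosome 6) is better known as STAR1. It is the ATP-binding subunit that works with the membrane subunit STAR2 in export of UDP-glucose for the cell wall, and rice needs both for aluminium tolerance. ABCI12 read 6.53, 6.74 and 6.71 in WT, 6.99, 7.11 and 6.73 in OE and 6.52, 6.49 and 6.45 in RNAi. Every RNAi array was below every array of the other groups, and OE replicate 3 fell inside the WT range. The difference between the lines was 0.45 (SE 0.10, interval 0.23 to 0.67, adjusted p = 0.0280), 1.37-fold higher in OE, and the call did not survive leaving out any of OE replicates 1 and 2 and RNAi replicates 2 and 3 (largest adjusted p 0.10). Against WT the differences were 0.28 in OE (interval 0.05 to 0.50, adjusted p = 0.192) and -0.17 in RNAi (interval -0.40 to 0.05, adjusted p = 0.517).

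STAR2, on chromosome 5, is not named as an ABC gene in the table and so is not a member. Its brighter probe set read 9.06, 9.18 and 9.07 in WT, 9.18, 9.50 and 9.20 in OE and 9.08, 8.84 and 8.63 in RNAi. As for ABCI12, no OE array overlapped the RNAi arrays, and the difference between the lines was 0.44 (SE 0.12, adjusted p = 0.0638), which did not pass the test. The dimmer STAR2 set differed by 0.018 (adjusted p = 0.932). ART1, the zinc finger factor that drives aluminium tolerance genes in rice roots, differed between the lines by -0.12 and 0.10 on its 2 sets, and Nrat1, the aluminium uptake transporter, by 0.064 (adjusted p from 0.530 to 0.654). Of the 7 probe sets of this list, 1 was called (ABCI12 itself, between the lines, where 6.16% of all probe sets were called) and none against WT. The list also took in ALS1, a name that here marks acetolactate synthase rather than an aluminium gene and that was not called.

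**Figure D3:**
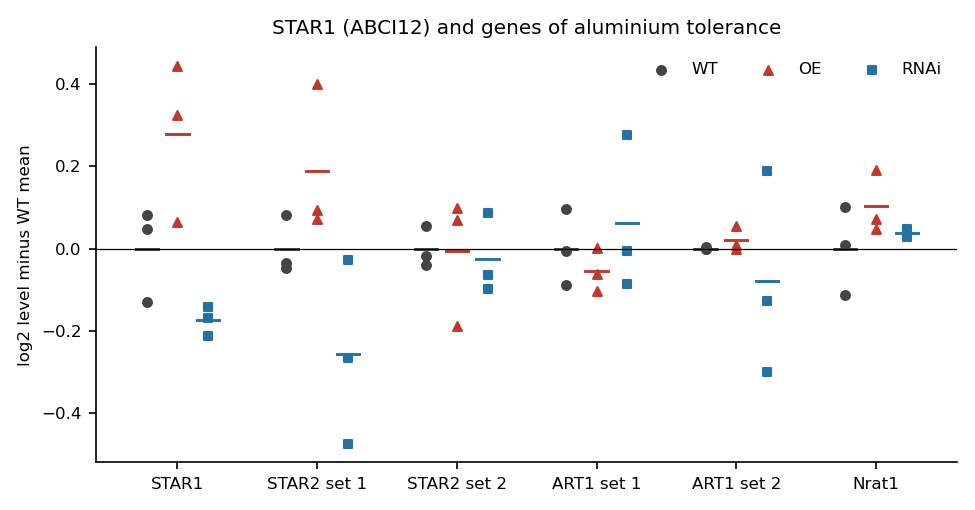
Log2 level minus the WT mean (y axis) of STAR1 (ABCI12), STAR2, ART1 and Nrat1 probe sets on each array, with a bar at each group mean. OE lies above RNAi on every array for STAR1 and the first STAR2 set, with differences of 0.45 and 0.44, and the groups overlap or touch for the rest.

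ABCC13 (LOC4331585, chromosome 3, also LPA2) is the only subfamily C member, and in rice its mutants have little phytic acid in the seed. Its levels were 9.20, 9.19 and 9.17 in WT, 9.23, 9.17 and 9.23 in OE and 9.33, 9.31 and 9.23 in RNAi. The RNAi arrays were above all WT arrays, but the differences were 0.10 in RNAi (interval -0.030 to 0.24, adjusted p = 0.521) and 0.022 in OE (interval -0.11 to 0.16, adjusted p = 0.891). ABCC13 had the smallest within-group SD of the 15 sets, at 0.039.

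Glutathione S-transferases, which make conjugates that subfamily C pumps carry, were read by 8 probe sets of 6 genes. Of these, 1 was called, GST1 between the lines, where 6.16% of all probe sets were called, and none against WT. GST1 read 6.64, 6.73 and 6.97 in WT, 6.54, 6.57 and 6.30 in OE and 6.97, 6.86 and 7.12 in RNAi, so that OE was below both other groups on every array. The difference between the lines was -0.51 (SE 0.11, adjusted p = 0.0248) on a set with suffix _s_at. None of 6 probe sets of the cuticle and suberin list was called, where only KCS20 (wax and suberin chain elongation) and CYP703A3 (pollen wall) have such roles and the names wsl3, wsl6, wsl8 and FDH reached other genes. KCS20 read 5.72, 5.77 and 5.77 in WT and 6.65, 5.72 and 6.30 in RNAi, a difference of 0.47 (adjusted p = 0.342).

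In OE against WT, 9 of 15 probe sets were below 0 and 6 above, against 45.1% of all tested probe sets below 0. The median was -0.27 against 0.017 over all tested probe sets. Groups did not overlap for 5 of 15, each lower in OE (ABCG36 _x_at, ABCG5, ABCG45, ABCG48 and ABCG50). Of all 57194 probe sets, 23.3% did not overlap in either direction, and 6842 did not overlap and were lower in OE. At an unadjusted limma p under 0.05 there were 5 of 15, of which 4 were lower, against 16.9% of all. Of all 57194, 5075 were at that p and lower in OE. In RNAi against WT the median was -0.024, against 0.0018 over all, and 3 of 15 did not overlap (ABCC13 higher, ABCG36 _x_at and ABCI12 lower) against 16.3% of all. Between OE and RNAi the median was -0.11, against 0.0035 over all, with 3 of 15 not overlapping against 23.2% of all. Probe sets of the same gene are not independent, and neighbouring genes may share probes.

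Spread between pools was wide for several transporters. The within-group SD of 6 of 15 probe sets lay above the 90th percentile of all tested probe sets, which holds 10% of them, with ABCG45 at the 99.2 percentile (SD 0.47), ABCG48 at 97.7 (0.35), ABCG36 _a_at at 96.9 (0.31), ABCG37 at 96.4 (0.30), the second ABCG39 set at 94.4 (0.25) and ABCG5 at 93.5 (0.24). The median SD of all probe sets was 0.11. ABCG36 _x_at, the set called against WT, had an SD of 0.11 and stood at the 45.7 percentile. The RNAi group had the largest SD of the 3 groups for 9 of 15, against 43.2% of all probe sets.

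Within RNAi, replicates 1 and 3 stood at opposite ends for most sets. For ABCG36 _a_at, ABCG37, ABCG45, ABCG48, ABCG32 and the second ABCG39 set, replicate 1 was the lowest RNAi array and replicate 3 the highest. For ABCG5, ABCG50, ABCC13, ABCI12 and both ABCG42 sets the same arrays stood the other way round, and of these only ABCG5 was among the 6 sets of wide spread. Replicate 2 was therefore in the middle for 12 of 15 sets, against 41.3% of all tested probe sets. ABCG45 deviated from its RNAi mean by -0.82 on replicate 1 and by 0.64 on replicate 3, and ABCG5 by 0.37 and -0.29. In WT, replicate 1 was the lowest array for 11 of 15 sets, against 42.2% of all.

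**Figure D4:**
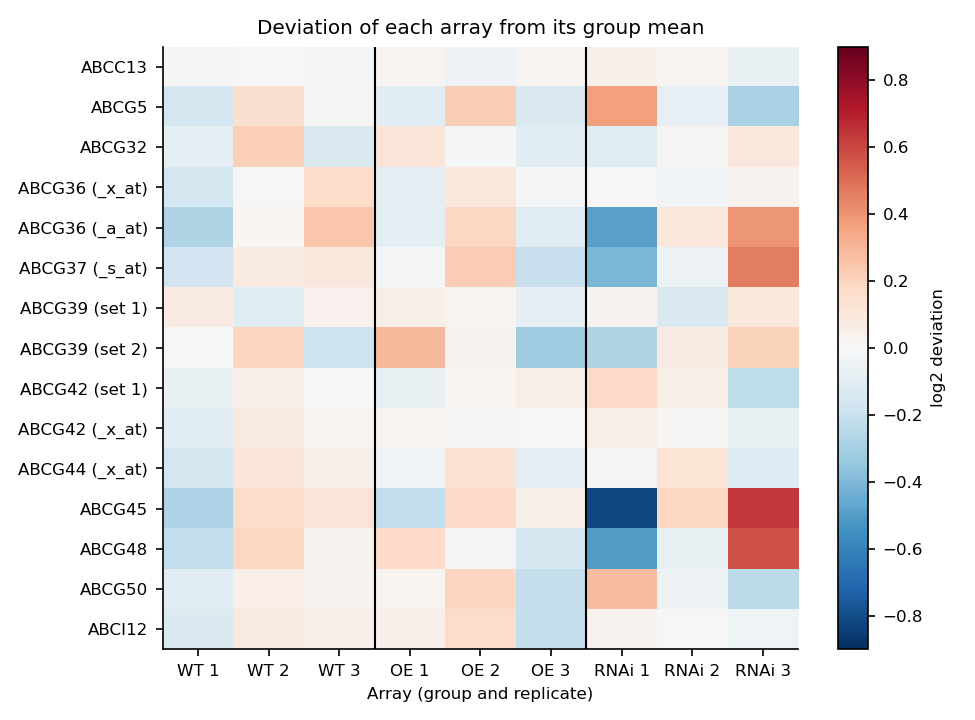
Deviation of each array (columns) from the mean of its group, on the log2 scale in colour (red above, blue below), for the 15 transporter probe sets (rows). RNAi replicates 1 and 3 carry the strongest colours, -0.82 and 0.64 for ABCG45, with the opposite order for ABCG5 at 0.37 and -0.29.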

How the data were processed

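The arrays were those of the study, in groups and with replicate numbers taken from the labels. The authors deposited 1 table of log2 values per probe set and array, made with RMA (version not given in the sources used here), so depth does not apply, levels near the lower end are compressed and a change shared by most transcripts would be reduced. The number of arrays, 3 a group, limits the precision. Of 57381 probe sets, 187 control and reporter sets were left out and 57194 were tested, of which 22436 list 1 gene, 95 several and 34663 none. Names were updated through a gene table of assembly ASM3414082v1. No coordinates are given, since builds could not be matched, and 0 columns of the table were unmapped.

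In limma 3.58.1 (R 4.3.3), group means were estimated from the 9 arrays together, with 6 residual and 3.78 prior degrees of freedom, and 3 two-sided contrasts were adjusted by Benjamini-Hochberg over all tested probe sets. The script was checked on simulated data. All adjusted p-values are from limma unless a test is named. Signals of gene and neighbour were not separated. Members, gene lists and tests were chosen with earlier results of these data known. Named were the called members, the 3 largest differences of each comparison, ABCG36, the members bright in a subfamily or of known role in rice and, in related lists, the called or largest member, and values of the remaining members are given in short beyond that rule. Lists of MATE exporters and vacuolar proton pumps matched no probe set. Alternatives were fits on 6 arrays, other scalings, a filter on low means, trend and robust eBayes, an unmoderated test, the replicate block, control sets kept, each array left out, and other choices of probe sets or fold.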

Additional observations from a re-analysis of the deposited data

Results flagged for a closer look

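The differences from WT in OE and in RNAi were set against each other by the contrast between the lines, and 3 transporters differed in it by limma with Benjamini-Hochberg adjustment. These were ABCG48 (-0.93, adjusted p = 0.0437), ABCG5 (-0.86, adjusted p = 0.0146) and ABCI12 (0.45, adjusted p = 0.0280). For each of them the OE and RNAi group means lay on opposite sides of the WT mean, while neither line was called against WT.

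A probe set with no listed gene, which the study's own table annotates as an ABC transporter, lies outside the members and was picked by the study on these samples, so its difference is not independent evidence. It read 5.53, 5.82 and 5.83 in WT, 7.02, 6.91 and 6.36 in OE and 5.79, 5.89 and 5.33 in RNAi. All OE arrays were above all others. The difference was 1.04 in OE (adjusted p = 0.0207), -0.06 in RNAi (adjusted p = 0.931) and 1.09 between the lines (adjusted p = 0.0100).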

How the results depend on the processing

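Over 45 comparisons of members, 759 alternatives were computed. Of these, 697 kept direction and side of the threshold, 28 lost a call, 6 gained one and 28 turned the sign, none of them of a called value. Counts of all probe sets called in OE vs WT, RNAi vs WT and OE vs RNAi were 1680, 274 and 3521. With the unmoderated test per probe set they were 42, 18 and 84, with 0 transporters in each, and with only the 6 arrays compared RNAi vs WT and OE vs RNAi gave 167 and 1805. With those 6 arrays the transporters called were 3, 0 and 1. Against WT, 0 transporters were called in either line when only the set of highest mean per gene was taken or sets with suffix _s_at or _x_at were dropped, and over 2-fold the count was 0 in all 3 comparisons. Without 1 array the counts of all probe sets ranged from 527 to 1939, 118 to 512 and 1693 to 4141, and those of transporters from 1 to 3, 0 to 1 and 0 to 4. Calls in OE vs WT split into 716 higher and 964 lower, and into 595 and 1230 with each array centred on its median. The excess of lower calls was absent without WT replicate 2 (291 higher and 288 lower), WT replicate 3 (281 and 246) or OE replicate 2 (646 and 578). It was also absent in the unmoderated test (25 and 17). Every other setting had more lower than higher calls, and the cause was not tested.

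The filter on low means removed ABCG32 and ABCG50. Deviations from the group means were compared between same-numbered arrays of different groups. Their correlations ran from -0.33 to 0.12, with 2 of 9 pairs over 0.1. By these deviations, 0 arrays were closest to an array of their own number. The labels do not say whether the numbers mark a shared batch, and with 3 arrays a group these values cannot decide it. With the replicate block, 937, 209 and 2455 probe sets were called. Under the block ABCG48 between the lines had an adjusted p of 0.0630 and ABCG45 of 0.0492.

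Sign changes arose only where the difference was 0.23 or less. With median centring, ABCC13 and the ABCG42 _x_at set in OE vs WT were -0.0081 and -0.027, and the first ABCG42 set in RNAi vs WT was -0.024. With quantile normalization repeated, ABCG37 in RNAi vs WT was 0.032. On leaving out single arrays, the ABCG42 _x_at set in OE vs WT ranged from -0.048 to 0.045. In RNAi vs WT the ranges were -0.15 to 0.020 for ABCG32, -0.43 to 0.011 for ABCG36 _a_at, -0.23 to 0.20 for ABCG37, -0.079 to 0.040 for the first ABCG39 set, -0.086 to 0.12 and -0.076 to 0.017 for the ABCG42 sets and -0.32 to 0.41 for ABCG45. In OE vs RNAi they were -0.43 to 0.013 for ABCG36 _a_at, -0.17 to 0.14 for the second ABCG39 set, and -0.15 to 0.050 and -0.0039 to 0.053 for the ABCG42 sets. Whether a set lay above background was not assessed.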
